A study of Mus musculus with 12 samples.

Results

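The cytosolic ribosomal protein genes were taken from the deposited count table of macrophages from mouse bone marrow as all rows whose symbol starts with Rpl or Rps and a number, together with Rplp0, Rplp1, Rplp2 and Rpsa. The name pattern matched 101 rows, and 16 were left out, namely 10 genes of the Rps6 kinase family, 5 rows marked as pseudogenes and Rps19bp1. This left 85 members of 23420 gene rows, of which 52 encode proteins of the large ribosomal subunit and 33 encode proteins of the small subunit. The symbols of 8 members mark a second copy of another ribosomal protein gene (Rpl3l, Rpl7l1, Rpl10l, Rpl22l1, Rpl36al, Rpl39l, Rps4y2 and Rps27l). The rule itself uses names and no measured value.

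The study compared macrophages sorted from marrow cells of tibias treated with mesenchymal stromal cells (MSCs), which its labels call MSC-educated, with macrophages from untreated femurs. Both bones came from the same 2 mice, numbered 7 and 19, on a C57BL/6 background, and the series title places the work in leukemic marrow; the labels used here give no age, no leukemia model, no dose of MSCs and no time. Each mouse and bone gave 3 libraries, 12 in all. Nothing says that these 3 were separate sorts, so p-values over libraries measure the spread between libraries of 2 animals, and that spread may be technical. Treatment and bone changed together, so an effect of the MSCs and a difference between tibia and femur cannot be told apart. In sorted bulk samples, fewer cells of a type and less RNA per cell cannot be told apart either.

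Ribosomal proteins assemble with ribosomal RNA into a small subunit, which reads the mRNA, and a large subunit, which joins the amino acids. The proteins are needed in near-equal numbers, and their mRNAs are among the most abundant in dividing and in secretory cells. Most of these mRNAs begin with a cytosine and an unbroken run of pyrimidines, the terminal oligopyrimidine (TOP) tract, through which the kinase mTOR and the RNA-binding protein Larp1 control how much of the mRNA is translated. A count of mRNA reads does not see that control.

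The start of the transcript is shown for 8 members because the TOP tract is the sequence feature that these mRNAs are known for. The window runs from 15 bases before to 20 bases from the transcription start that RefSeq annotates on GRCm38.p6, read 5′ to 3′ on the gene's strand, and capitals mark the run of pyrimidines that was found (a C followed by at least 4 pyrimidines, gene strand only, first base within 10 bases of the start).
Rpl14 (chr9:120571502-120571536, + strand): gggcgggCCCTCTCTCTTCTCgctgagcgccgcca
Rpl15 (chr14:18270967-18271001, - strand): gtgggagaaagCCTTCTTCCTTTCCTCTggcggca
Rplp2 (chr7:141447636-141447670, + strand): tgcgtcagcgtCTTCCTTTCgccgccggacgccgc
Rps6 (chr4:86857348-86857382, - strand): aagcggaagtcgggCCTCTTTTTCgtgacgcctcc
Rps2 (chr17:24720048-24720082, + strand): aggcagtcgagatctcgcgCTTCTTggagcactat
Rpl12 (chr2:32961697-32961731, + strand): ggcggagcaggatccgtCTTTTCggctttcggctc
Rpl22l1 (chr3:28805493-28805527, + strand): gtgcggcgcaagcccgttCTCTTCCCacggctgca
Rplp0 (chr5:115559452-115559486, + strand): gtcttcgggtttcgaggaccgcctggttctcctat
The first 4 hold a tract that spans the annotated start, Rps2, Rpl12 and Rpl22l1 hold one that begins 4, 2 and 3 bases downstream of it, and in Rplp0 no run met the definition in this window. RefSeq gave a promoter for 64 of the 85 members. Of these, 39 (60.9%) held such a tract within 10 bases of a start, against 34.4% of 27025 mouse genes. A C at the annotated start itself, followed by at least 4 pyrimidines, was found for 13 of 64 (20.3%), against 3.01% of all genes. The tract within 10 bases was found for 60% of 40 large and 62.5% of 24 small subunit members. A match describes these letters only, and no match says nothing of the transcripts that these cells use.

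Library totals ran from 9773455 to 14869150 counts, and TMM factors, the correction for RNA composition applied on top of totals, from 0.9903 to 1.012. Of 12 macrophage markers, Lyz2 was at 12489 to 15789 CPM (counts per 1000000 counts of a library) and Csf1r at 783 to 1128 CPM. Some were low, with Cd14 at 32.2 to 78.1, Mrc1 at 10.6 to 21.4 and Mertk at 3.5 to 12.1 CPM. Lyz2 made up most of the summed macrophage level given next. Granulocyte markers were high too: 10 genes of granulocyte precursors summed to 9231 to 10298 CPM in mouse 7 and 13566 to 16642 CPM in mouse 19, against 16929 to 19469 CPM and 15941 to 16854 CPM for 12 macrophage genes. The 4 haemoglobin genes Hba-a1, Hba-a2, Hbb-b1 and Hbb-b2 were at 0 in all 12 libraries, while the erythroid gene Car1 was at 1.63 to 13.8 CPM. Stromal genes were low but not all absent. Pdgfra did not exceed 0.296 CPM, while Cxcl12 was at 1.03 to 7.37, Pdgfrb at 0.791 to 1.63 and Col1a1 at 0.158 to 1.01 CPM.

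Ribosomal protein mRNA made up 3.05 to 3.70% of all counts in a library, carried by nearly all members. Of the 85 members, 73 had a mean of 100 CPM or more, 24 had 500 or more, and 4 (Rplp0, Rpl4, Rpsa and Rps9) had 1000 or more. A further 4, Rpl22l1, Rps27l, Rpl17 and Rpl7l1, lay between 30 and 100 CPM. The remaining 8 were below 2 CPM or absent. Rpl26, Rpl39l and Rpl10l had 0 counts in every library, which allows up to 0.0386 CPM over the 12 libraries together at 3 fragments of 2 counts each, counting error only. Rps4y2, which RefSeq lists as the transcribed pseudogene Rps4l, had 6 counts in all. Rpl30 averaged 0.73 CPM, Rpl3l, the copy known from muscle, 0.86 CPM, Rps27 1.32 CPM and Rpl34 1.39 CPM. Rpl26, Rpl30, Rpl34 and Rps27 encode core proteins of the ribosome and have near-identical copies elsewhere in the genome. No source used here says how reads with several matching places were counted, so the levels of these 4 rows are uncertain. The same limit holds for any other member with such copies, and for the comparisons of level between genes that follow.

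Levels between genes were compared per kilobase, using the median length of the gene's GENCODE transcripts that are matched to RefSeq. In the large subunit, 2 proteins of the stalk that recruits elongation factors led the list, Rplp1 at 1517 and Rplp0 at 1271 CPM per kb of mRNA, while Rplp2, the third protein of the stalk, stood at 478. They were followed by Rpl32 at 1142, Rpl4, which lines the exit tunnel, at 1018 and Rpl41, the shortest member with 75 coding bases, at 989. In the small subunit, Rps9 stood at 1389 CPM per kb of mRNA, Rps24 at 1280, Rps29 at 1087, Rps15 at 1001 and Rps4x at 916. With coding length in place of mRNA length, 4 of the 5 leading genes stayed the same in each subunit. Further down, the order depended on the length used. Rps20, with an mRNA length of 3706 bases, stood at 127 CPM per kb of mRNA and 1320 per kb of coding sequence. For Rps15a, with 5179 bases, these values were 74.1 and 984. The median member of the small subunit was above that of the large subunit on both scales, at 550.4 against 368.1 CPM per kb of mRNA and at 936 against 619.5 CPM per kb of coding sequence. These medians cover 52 large and 32 small subunit members, as Rps4y2 has no annotated length. They include the rows at or near 0, which are unevenly shared. Such rows are Rpl26, Rpl10l, Rpl39l, Rpl30, Rpl34 and Rpl3l in the large subunit and Rps27 in the small subunit.

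**Figure D1:**
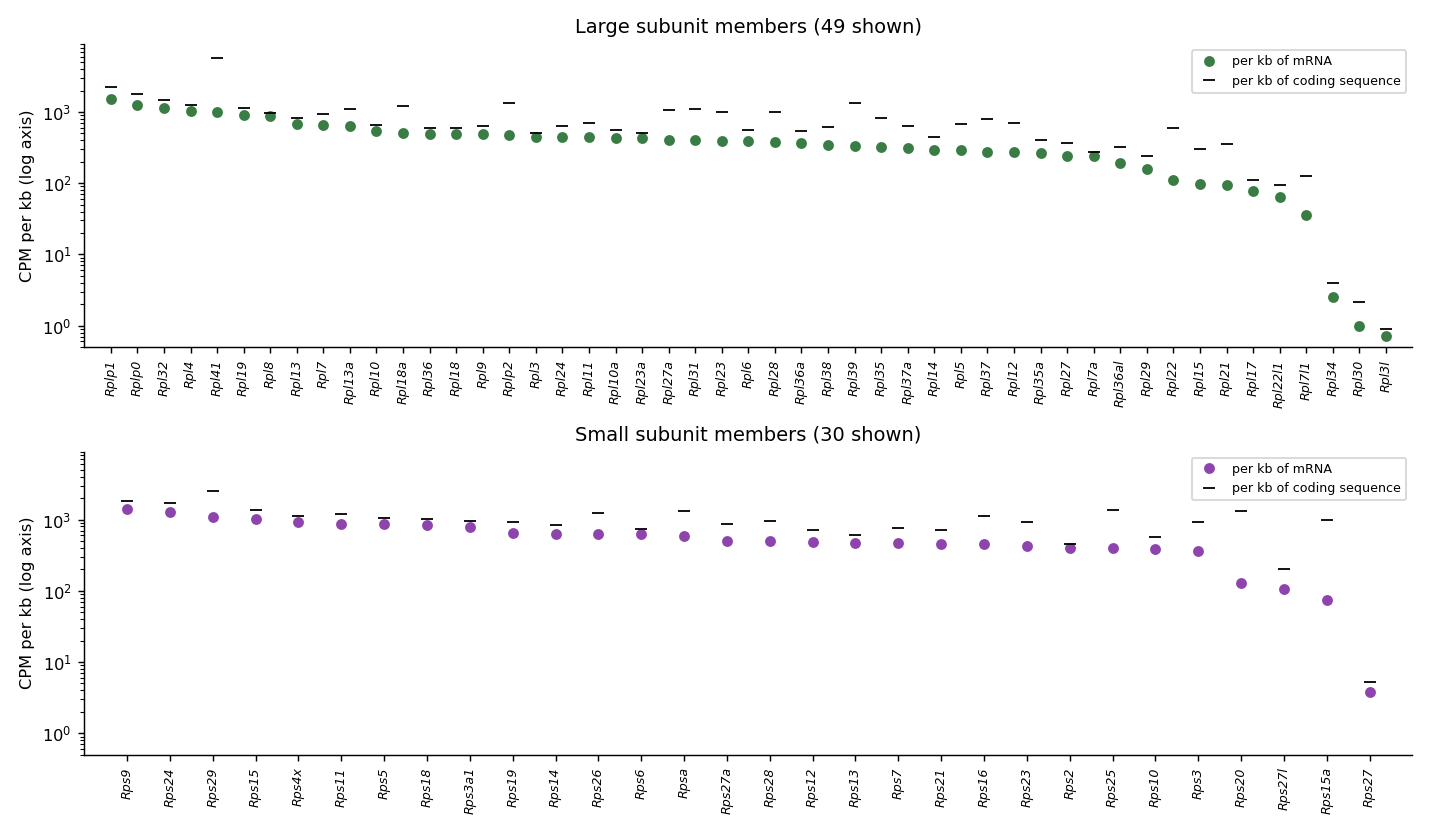
Mean CPM per kilobase over 12 libraries (log axis) of the 49 large subunit and 30 of 32 small subunit members with a count and an annotated length, ordered by the value per kb of mRNA (circles; dashes give the value per kb of coding sequence). Rpl34, Rpl30, Rpl3l and Rps27 stand far below all other members.

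Both subunits were high and low in the same libraries. The summed level of the large subunit was 17849, 16893 and 18369 CPM in the femur libraries of mouse 7 and 17973, 18844 and 18800 CPM in its tibia libraries. In mouse 19 it was 19503, 19650 and 19216 CPM in the femur and 20146, 20441 and 19091 CPM in the tibia. Tibia and femur overlapped in each mouse, while every library of mouse 19 stood above every library of mouse 7. The small subunit summed to 14339, 13770 and 14712 CPM in the femur and 14423, 15076 and 15071 CPM in the tibia of mouse 7. In mouse 19 its sums were 15529, 15769 and 15508 CPM in the femur and 16257, 16737 and 15317 CPM in the tibia. Again every mouse 19 library was above every mouse 7 library, and femur library 2 of mouse 7 was the lowest of all for both subunits. The ratio of large to small subunit stayed between 1.22 and 1.26 in all 12 libraries.

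As a log2 difference averaged over the mice, tibia exceeded femur by 0.05 for the large subunit and by 0.05 for the small subunit. The SD between libraries of one mouse and bone was 0.05 for each, so the differences were about as large as the spread between libraries. The ratio of the subunits differed by -0.00 between the bones, with an SD of 0.01 within groups. These are sums over chosen members and carry no test.

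**Figure D2:**
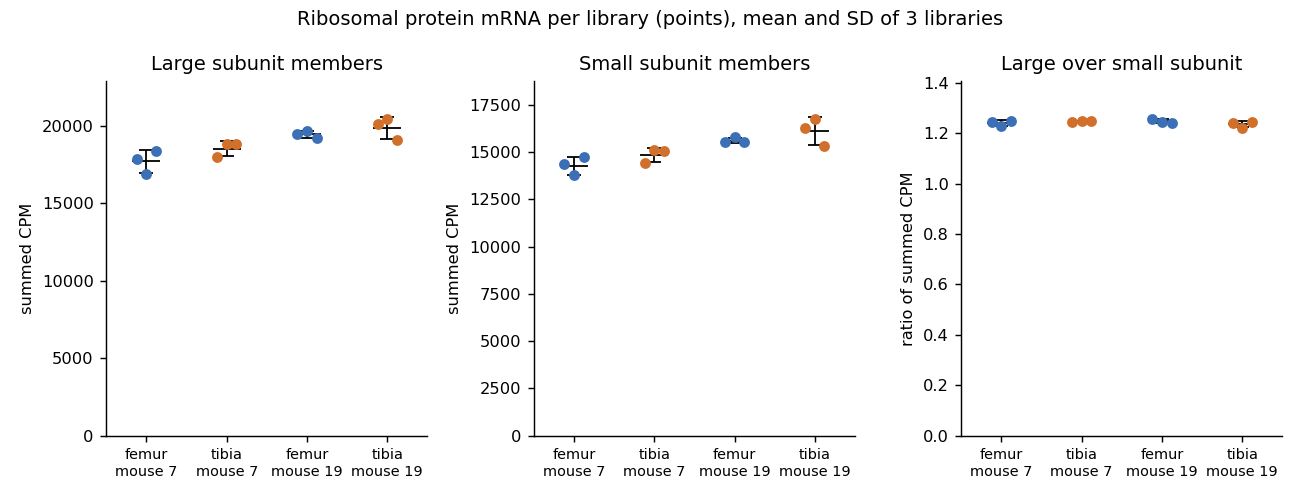
Summed CPM of the large subunit members (left) and small subunit members (middle) and their ratio (right) in each library (points), by bone and mouse, with the mean and SD of 3 libraries. The mouse 19 libraries lie above the mouse 7 libraries in both sums, and the ratio stays between 1.22 and 1.26.

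Over both mice, 6 members rose in the MSC-treated tibia and none fell. Of the 85 members, 81 passed the filter on low counts and were tested (49 large, 32 small), and Rpl26, Rpl10l, Rpl39l and Rps4y2 did not pass. Those described here are Rps2 and Rps27l of the small subunit and Rpl12, Rpl14 and Rpl22l1 of the large subunit, which passed an adjusted p of 0.05 in edgeR's quasi-likelihood test with a term for the mouse. The 6 are 7.41% of the 81, beside a background of 3.51% of 11806 genes called higher and 3.69% called lower. DESeq2 on the same design called 10 higher and 0 lower, beside 4.05% and 4.62% of all genes. At an unadjusted p under 0.05, 25 members were higher and 0 lower, beside 9.6% and 11.2% of all genes. The median member changed by a log2 difference of 0.05, against -0.00 over all genes, and 76 of the 81 had a positive value, against 49.2% of all genes. Among the 77 members at 10 CPM or more, values ran from -0.02 for Rpl17 to 0.26 for Rpl22l1. With counts summed per mouse and bone, so that the 2 animals are the replicates, none of the 81 passed, beside 0.407% of all genes higher and 0.144% lower, and the adjusted p of the 5 described here ran from 0.232 to 0.499 in edgeR.

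Rps2, a small subunit protein near the mRNA entry channel, showed the lowest p. Its femur libraries held 329.5, 318 and 328 CPM in mouse 7 and its tibia libraries 388, 425 and 394 CPM. In mouse 19 the femur held 437, 409 and 416 CPM and the tibia 448, 447 and 412 CPM. The bones were fully apart in mouse 7 and overlapped in mouse 19. Over both mice its log2 difference was 0.18 ± 0.04 (SE, edgeR adjusted p = 0.00828). The span of Rps2 overlaps the non-coding gene Snhg9, which averaged 0.0886 CPM in femur and 0.214 CPM in tibia.

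Rpl14, a large subunit protein, was at 268, 247 and 265 CPM in the femur and 295, 289.8 and 297 CPM in the tibia of mouse 7. In mouse 19 it was at 300.5, 313 and 291 CPM in the femur and 322, 327 and 309.5 CPM in the tibia. The bones were apart in mouse 7 and overlapped in mouse 19, where the lowest tibia library fell below the highest femur library. The log2 difference over both mice was 0.13 ± 0.03 (SE, edgeR adjusted p = 0.0141). Rpl14 and Rps2 were the 2 members whose call over both mice survived the omission of each of the 12 libraries in turn.

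Rpl12, which sits at the base of the stalk that recruits elongation factors, was at 294, 283 and 309.8 CPM in the femur and 329.5, 329.8 and 339.5 CPM in the tibia of mouse 7. In mouse 19 it was at 363, 359 and 359 CPM in the femur and 386, 379.6 and 362 CPM in the tibia. The mouse 7 bones were apart, and in mouse 19 the lowest tibia library lay just below the highest femur library. Its log2 difference was 0.12 ± 0.03 (SE, edgeR adjusted p = 0.0273), and leaving out any one of 5 libraries raised the adjusted p to at most 0.0813.

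Rps27l and Rpl22l1 are second copies. Rps27l, the second copy of Rps27 and a target of p53 in human and mouse cells, was at 53.4, 54.7 and 52.8 CPM in the femur and 63.1, 58.4 and 60.7 CPM in the tibia of mouse 7. In mouse 19 it was at 50.6, 53.3 and 57.6 CPM in the femur and 60.3, 59.2 and 58.6 CPM in the tibia. Of the 5 it was the one whose tibia libraries were all above the femur libraries in both mice. The log2 difference was 0.16 ± 0.04 (SE, edgeR adjusted p = 0.0278), and the call was lost with 7 of the 12 single omissions (adjusted p up to 0.0656).

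Rpl22l1, the second copy of Rpl22, had the largest difference of the 5. It was at 27.6, 29.3 and 27.2 CPM in the femur and 38.5, 30.4 and 39.1 CPM in the tibia of mouse 7. In mouse 19 it was at 37.3, 31.7 and 35.6 CPM in the femur and 40.2, 43.3 and 33.9 CPM in the tibia. The bones were apart in mouse 7 and overlapped in mouse 19. The log2 difference was 0.26 ± 0.07 (SE, edgeR adjusted p = 0.0279), lost with 6 of the 12 single omissions (adjusted p up to 0.0857).

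**Figure D3:**
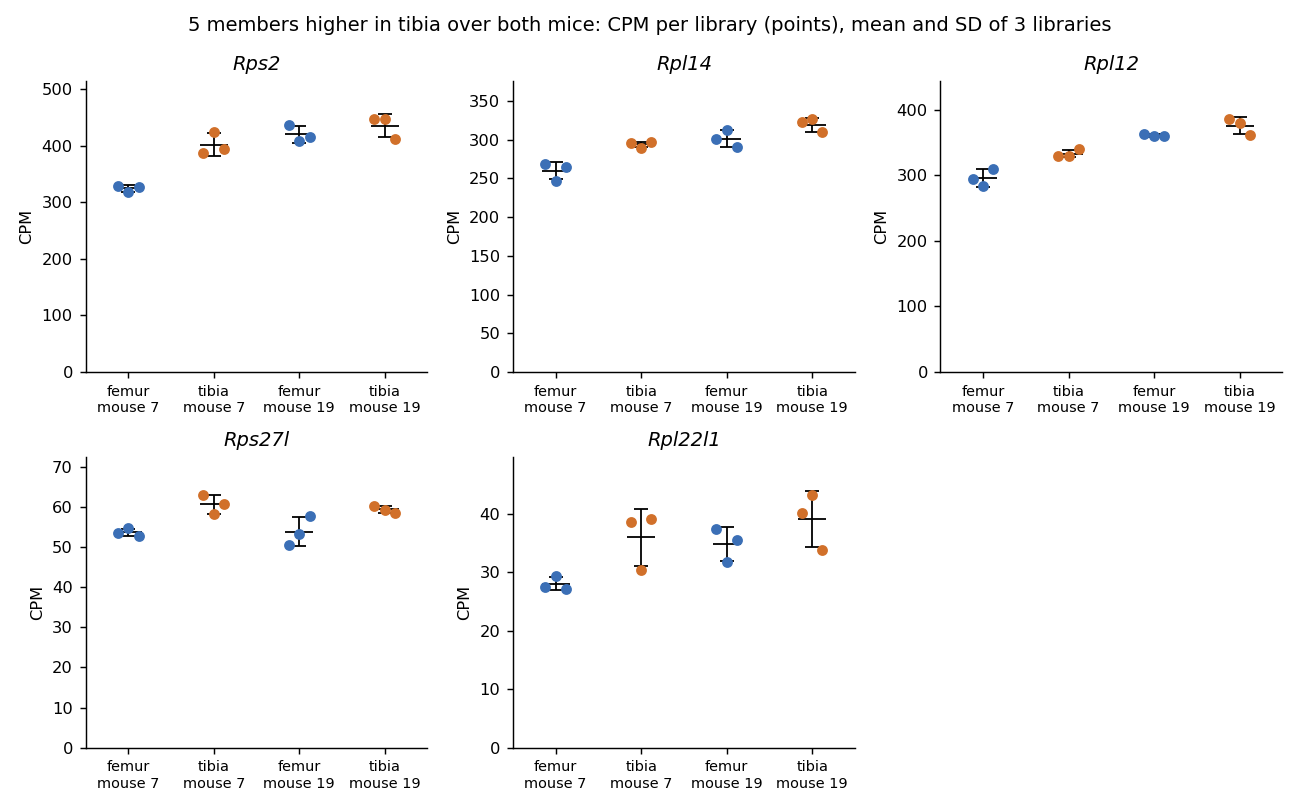
CPM per library (points) of 5 of the 6 members called higher in tibia over both mice, by bone and mouse, with the mean and SD of 3 libraries; axes start at 0. The bones of mouse 7 do not overlap for any of the 5, and in mouse 19 Rps27l alone has all tibia libraries above all femur libraries.

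Mouse by mouse, an edgeR fit with 1 mean per mouse and bone gave calls in mouse 7. There 8 of 81 members rose in the tibia and none fell, beside 4.37% of all genes higher and 5.36% lower. At an unadjusted p under 0.05, 22 were higher and 0 lower, beside 10.8% and 12% of all genes. Rps2 had a log2 difference of 0.31 ± 0.04 (SE, edgeR adjusted p = 1.1e-05), Rpl12 of 0.17 ± 0.04 (adjusted p = 0.00462 in the edgeR fit) and Rpl14 of 0.18 ± 0.04 (0.00505). Rpl3, a protein of the peptidyl transferase centre, had 0.16 ± 0.04 (0.0109) and Rpl41 0.14 ± 0.04 (0.0252). The second copies Rpl22l1 and Rpl36al had 0.36 ± 0.10 (0.0154) and 0.21 ± 0.06 (0.0364). The calls of Rps2 and Rpl12 in mouse 7 held when each library was left out in turn. Single omissions ended that of Rpl14 1 time, Rpl3 and Rpl41 3 times each, Rpl22l1 4 times and Rpl36al 5 times (edgeR adjusted p up to 0.21). In the tibia of mouse 7, 19 of the 81 members (23.5%) had all 3 libraries above all 3 femur libraries and 0 had all below. Over all genes tested these shares were 12.2% and 14.4%.

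In mouse 19, 0 of 81 members passed in either direction with edgeR, beside 2.96% of all genes higher and 2.21% lower, and DESeq2 called 1 higher and 0 lower, beside 2.99% and 2.7%. At an unadjusted p under 0.05, 9 members were higher and 0 lower, beside 8.85% and 8.33% of all genes. All 3 tibia libraries were above all 3 femur libraries for 10 members (12.3%), against 10.8% of all genes, and for no member were they all below, against 10.3%. The median member differed by a log2 value of 0.05 in mouse 19 and 0.06 in mouse 7, and 71 and 73 of the 81 values were positive.

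A call in one mouse and none in the other does not show that the mice differ. The test of the difference itself called 1 of 81 members, Rps2, beside 2.89% of all genes with a larger value in mouse 19 and 1.85% with a smaller one. Its tibia-femur difference was smaller by a log2 value of 0.26 in mouse 19 (-0.26 ± 0.06 SE, edgeR adjusted p = 0.00745), where it was 0.05 ± 0.04. The call held when each library was left out in turn. For Rpl12 the same test gave an adjusted p of 0.345, for Rpl3 0.369, for Rpl14 0.504 and for Rpl22l1 0.575 in the edgeR fit. Cell cycle genes differed between the mice too. Of 12 fixed markers, 11 were higher in the tibia of mouse 7, 2 were lower in the tibia of mouse 19, and 11 differed between the mice. Their summed level was 3499 to 3664 CPM in the femur and 3998 to 4122 CPM in the tibia of mouse 7, and 4236 to 4350 CPM in the femur and 3831 to 4090.5 CPM in the tibia of mouse 19. Their part in the Rps2 result was not tested.

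**Figure D4:**
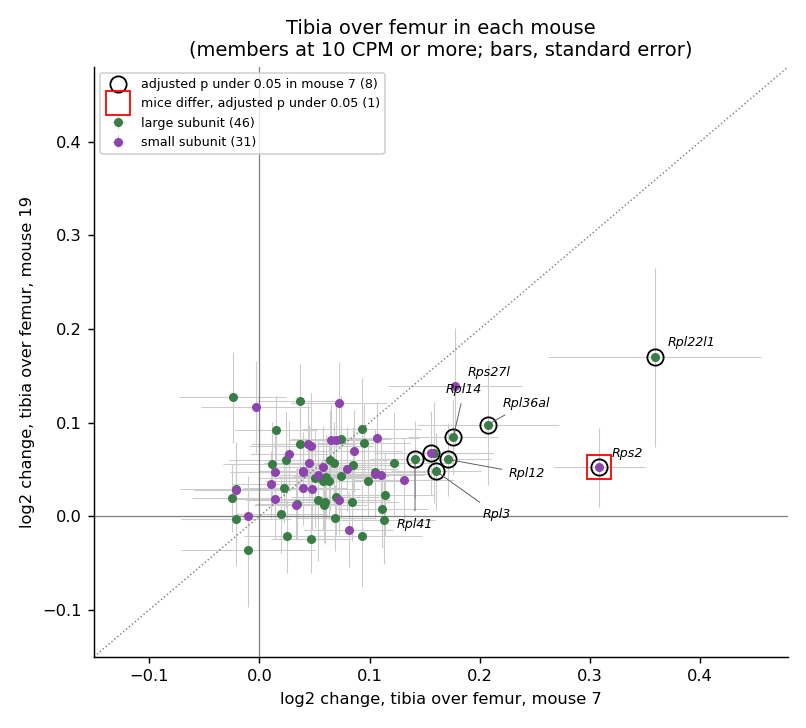
Log2 difference of tibia over femur in mouse 7 (horizontal) against mouse 19 (vertical) for the 77 tested members at 10 CPM or more, with standard errors; green, large subunit; purple, small subunit. Black circles mark the 8 members called in mouse 7 and the red square marks Rps2, for which the mice differed; the dotted line is equality.

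Most granulocyte precursor genes were also higher in the tibia, while neutrophil genes went both ways. Over both mice 7 of 10 were higher and 0 lower, with a median log2 difference of 0.33, and their summed level was 9231 to 10234 CPM in the femur and 9968.5 to 10298 CPM in the tibia of mouse 7, and 13566 to 15675 CPM and 15303 to 16642 CPM in mouse 19. Those called included Mpo (0.53) and Ms4a3 (0.69), made early in the granulocyte lineage. The most abundant of the list, Ngp (0.08) and Ltf (-0.03), did not pass, and 3 of the 10 differed between the mice. Of 6 neutrophil genes, 1 was higher and 3 were lower over both mice. In mouse 7 these counts were 1 and 3, and in mouse 19 they were 2 and 0. Of 12 macrophage genes, 2 were higher and 1 lower over both mice, 1 was higher and 3 were lower in mouse 7, 6 were higher and 0 lower in mouse 19, and 5 differed between the mice. The macrophage genes summed to 18911 to 19469 CPM in the femur and 16929 to 17645 CPM in the tibia of mouse 7, which did not overlap. In mouse 19 they summed to 16424 to 16854 CPM and 15941 to 16849 CPM. These sums were mostly Lyz2, itself lower in the tibia of mouse 7 (log2 -0.17, edgeR adjusted p = 1.8e-04). The part of any of these lists in the ribosomal protein values, Rps2 included, was not tested.

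None of 15 members named for their roles in the ribosome or outside of it passed over both mice with edgeR. Rpl5 and Rpl11, which with 5S ribosomal RNA bind the p53 regulator Mdm2, differed between tibia and femur by 0.03 ± 0.03 and 0.08 ± 0.03 (log2, SE) with edgeR adjusted p of 0.66 and 0.195. Rpl23, another Mdm2 partner, differed by 0.01 ± 0.03 (0.886). Rps6, the substrate of S6 kinase downstream of mTOR, was at 541.7 ± 39.6 CPM in the femur and 549.9 ± 40.7 CPM in the tibia (SD, n = 6 libraries each) and differed by 0.02 ± 0.03 on the log2 scale. Rpl13a, which in human monocytic cells leaves the ribosome to silence inflammatory mRNAs, differed by 0.07 ± 0.03 (edgeR adjusted p = 0.202). Rpsa, also known as a laminin receptor, differed by 0.04 ± 0.03. Rps14 and Rps19, whose loss of 1 allele causes anaemia in humans, differed by 0.04 ± 0.03 and 0.07 ± 0.03 (edgeR adjusted p 0.455 and 0.135). The stalk proteins Rplp0, Rplp1 and Rplp2 differed by 0.01 ± 0.03, 0.07 ± 0.04 and 0.05 ± 0.03, and none passed (edgeR adjusted p 0.274 to 0.876). Rps3, at the entry of the mRNA channel, differed by 0.08 ± 0.03, Rpl10, near the tRNA sites, by 0.04 ± 0.03 and Rpl22 by 0.08 ± 0.04 (edgeR adjusted p 0.144, 0.585 and 0.218). Rpl41 differed by 0.10 ± 0.03, with an adjusted p of 0.06 by edgeR and 0.0426 by DESeq2, and was called in mouse 7. Over these 15 members, the value plus or minus 2 SE ran from -0.05 to 0.17 on the log2 scale.

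Second copies were set against the gene they derive their name from. Only 3 pairs had at least 100 counts of both genes in every library. Per kb of mRNA, Rpl22l1 reached 58.1% of the level of Rpl22, Rpl36al 53.9% of Rpl36a and Rpl7l1 5.42% of Rpl7. Per kb of coding sequence, Rpl22l1 stood at 94.8 CPM against 588 for Rpl22. Rpl36al stood at 320 against 549 for Rpl36a, and Rpl7l1 at 126 against 947 for Rpl7. The share of Rpl22l1 per kb thus depended on the length used (mRNA of 538 bases against 2051 for Rpl22). As a share of the CPM of Rpl22, Rpl22l1 was 14.3% ± 1.4 in the femur and 16.2% ± 1.8 in the tibia (SD, n = 6 libraries each), a log2 difference of 0.18 (exact permutation test within mice, two-sided, p = 0.08, 0.24 adjusted over 3 pairs, smallest possible p 0.005). Rpl36al was 57.4% ± 4.2 and 59.9% ± 5.9 of Rpl36a (exact permutation p = 0.2, adjusted 0.3), and Rpl7l1 12.2% ± 0.5 and 12.1% ± 0.5 of Rpl7 (exact permutation p = 0.84). The rise of Rpl22l1 was thus not shown to exceed the difference of Rpl22. Rps27l had 8867 counts in all and Rps27 206. Rpl36al and Rpl36a encode near-identical proteins, and reads could be split between such copies.

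More members differed between the 2 mice than between the bones. Over both bones, 56 of 81 members (69.1%) were higher in mouse 19 and 0 were lower by edgeR's quasi-likelihood test, beside 15.2% of all genes higher and 15.1% lower. The large subunit gave 33 of 49 and the small subunit 23 of 32. The median member was higher by a log2 value of 0.12, against 0.00 over all genes, and the 56 calls ran from 0.08 to 0.28. All 3 femur libraries of mouse 19 were above all 3 of mouse 7 for 53 members (65.4%, all genes 20.3%), and the same held in the tibias for 38 members (46.9%, all genes 15.6%). No member had all libraries below in either bone, against 20.7% and 14.1% of all genes. This contrast compares 2 animals, and with counts summed per animal and bone 7 members (8.64%) were higher (Rpl3, Rpl12, Rpl36a, Rps2, Rps6, Rps12 and Rps25) and 0 lower, beside 6.45% and 6.31% of all genes, a share near the background.

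Rpl36a, a large subunit protein at the exit site for tRNA, had the largest difference among members at 10 CPM or more. It was at 149.8, 145 and 163 CPM in the femur and 157, 164.5 and 167 CPM in the tibia of mouse 7, and at 173, 196 and 186 CPM in the femur and 195, 211 and 186 CPM in the tibia of mouse 19. Every library of mouse 19 was above every library of mouse 7. The log2 difference was 0.28 ± 0.04 (SE, edgeR adjusted p = 9.9e-06). Rps2 was higher by 0.24 ± 0.04 (8.2e-05), Rpl12 by 0.23 ± 0.03 (5.0e-06), Rpl3 by 0.22 ± 0.03 (1.6e-05) and Rps6 by 0.18 ± 0.03 (4.1e-05) in the same edgeR fit. The second copy Rps27l stood at -0.01 ± 0.04 (0.863), the lowest value among members at 10 CPM or more, and Rps9, the small subunit member with most mRNA per kb, at 0.05 ± 0.03 (0.239). Of the members with a tract within 10 bases of a start 24 of 37 were called, and of those without 17 of 24, with median log2 values of 0.12 and 0.11. Of the 37, 13 had a C at an annotated start itself, followed by at least 4 pyrimidines. Among these 13, 6 were called (46.2%), with a median of 0.09. In the comparison of bones, 5 of the 37, 0 of the 24 and 1 of the 13 were called, with medians of 0.06, 0.05 and 0.06.

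**Figure D5:**
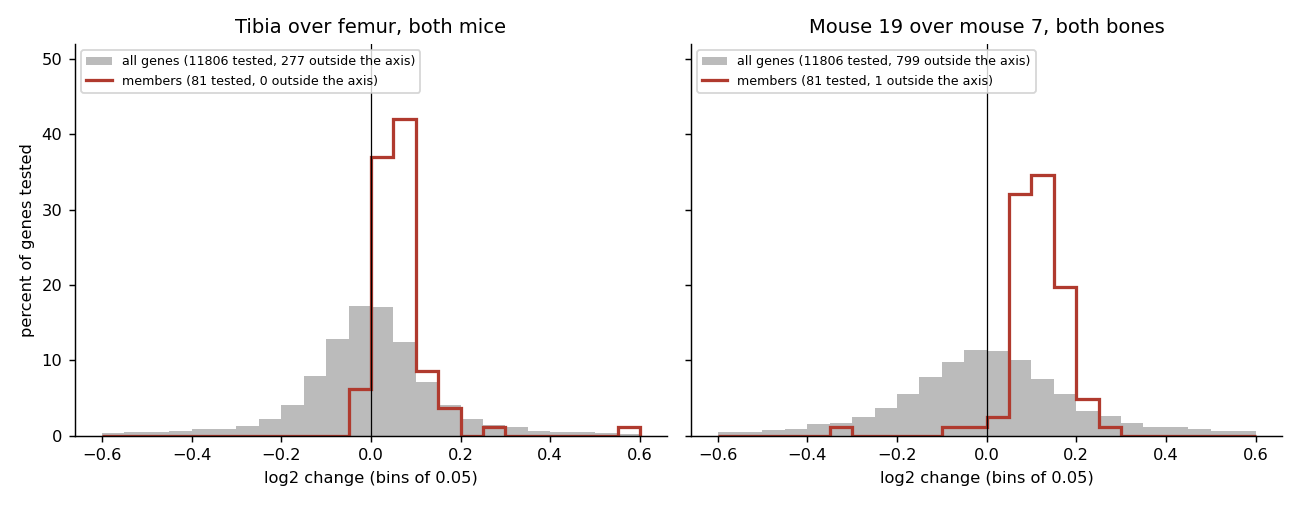
Share of genes tested (percent) by log2 difference in bins of 0.05, for tibia over femur (left) and mouse 19 over mouse 7 (right); grey, all 11806 genes; red line, the 81 tested members. The members form a narrow peak to the right of 0, with medians of 0.05 and 0.12.

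Markers of other cells differed between the mice as well. All 10 granulocyte precursor genes were higher in mouse 19 (median log2 difference 0.64), as were 5 of 6 neutrophil genes and 5 of 5 erythroid genes tested. Of 6 B cell and plasma cell genes tested, 5 were lower and 1, Igj, was higher. Macrophage genes went both ways, with 3 of 12 higher (C1qa, C1qb and C1qc) and 3 lower (Csf1r, Emr1 and Lyz2). The neutrophil genes summed to 9343 to 10380 CPM in mouse 7 and 13486 to 16813 CPM in mouse 19. Cell cycle genes were higher for 6 of 12. Ribosomal RNA read as Rn45s ranged from 579 to 5351 CPM and was higher in mouse 19 by a log2 value of 0.93 ± 0.29 (SE, edgeR adjusted p = 0.0189 for Rn45s). The part of any of these in the ribosomal protein values was not tested.

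The rest of the translation machinery gave few calls between the bones. Fau and Gnb2l1 (Rack1), which encode proteins of the small subunit under other symbols, did not pass, with log2 values of 0.01 and 0.00 (edgeR adjusted p 0.926 and 0.966). Of 76 mitochondrial ribosomal proteins, made for the separate ribosome of the mitochondrion, 1 rose, Mrpl54 (0.23 ± 0.06 SE, edgeR adjusted p = 0.0251), and 67 of 76 were positive with a median of 0.09. Of 34 initiation factors tested, 3 rose and 0 fell. They were Eif5a (0.20 ± 0.03, edgeR adjusted p = 1.7e-04), which helps the ribosome through proline runs, the helicase Eif4a1 (0.13 ± 0.03, 0.0154) and Eif2s1 (0.17 ± 0.04, 0.0197), the target of the stress kinases. Eif5a was at 479, 479.6 and 497 CPM in the femur and 571, 591 and 598 CPM in the tibia of mouse 7, and at 621, 606 and 597.5 CPM and 664.5, 681 and 649.6 CPM in mouse 19, apart in both mice. None of 10 elongation and termination factors passed, Eef1a1 standing at -0.01 ± 0.03 and Eef2 at -0.08 ± 0.03 (edgeR adjusted p = 0.0659 for Eef2).

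Of 53 genes of ribosomal RNA processing and subunit assembly tested, Nop58 rose (0.19 ± 0.05 SE, edgeR adjusted p = 0.0278) and Sdad1 fell by 0.16 on the log2 scale (adjusted p = 0.0355, edgeR). The nucleolar genes Ncl (0.09, 0.0918), Npm1 (0.04, 0.409) and Fbl (0.01, 0.943) did not pass in that fit. Of 15 genes of RNA polymerase I and 21 of mTORC1, Myc and their partners, 0 passed; Larp1 stood at -0.06 ± 0.04, Mtor at -0.08 ± 0.05 and Myc at 0.03 ± 0.09. Of 23 other mRNAs known to start with a TOP tract, 0 passed, and their median was 0.02. Of 10 genes of p53 and ribosome stress, 1 rose, the p53 target Cdkn1a (0.21 ± 0.06 SE, edgeR adjusted p = 0.0359). Between the mice, 10 of 76 mitochondrial ribosomal protein genes (13.2%) were higher in mouse 19 and 1 (1.32%) was lower, with a median of 0.05. Over all genes the shares were 15.2% higher and 15.1% lower, so the share called higher was not above the background.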

How the data were processed

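Per the labels' protocols, total RNA of sorted marrow macrophages (tibias given MSCs, femurs left untreated, 2 mice) was made into 12 mRNA-seq libraries. The authors deposited whole-number read counts per gene symbol, and every one of the 12 columns was matched to its sample by title. The build was mm10, and bcl2fastq, HISAT2, featureCounts, Subread and DESeq2 are named, per the submitters' processing notes, with versions, settings and annotation not given in the sources used here. As the use of strand is not stated, a member and a gene that overlaps it cannot be told apart, which touches 18 members. Of counts from 1 to 10, 69.8% were even, so most fragments appear as 2 counts.

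Genes were filtered with edgeR's filterByExpr (minimum count 10 over the 4 groups of mouse and bone; 11806 kept), scaled by TMM and tested with edgeR 4.0.16 (glmQLFit and glmQLFTest, R 4.3.3, limma 3.58.1), with Benjamini-Hochberg adjustment over all genes and a threshold of 0.05. Bones were compared over both mice with a term for the mouse, since the labels give both bones to the same animals. Mice were compared over both bones. The bones within each mouse, and the difference between mice, were tested in a fit with 1 mean per mouse and bone. CPM are TMM-scaled counts per 1000000 computed here from the deposited counts. The biological coefficient of variation was 6.26%. A few sums of members are given with no test. DESeq2 1.42.0 was an alternative, among those in the closing section; the exact test of second copies and the values per coding length were added after seeing the data. Same-numbered libraries of a mouse had correlations of deviations from -0.143 to 0.0885, so the numbers were not used to pair them.

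The members' rule uses names alone, but the members and gene lists were chosen with earlier results of these data known. Members named with values are up to 10 called in each direction and comparison (5 between mice) and second copies with their partners. Added to these are the 5 most abundant per length and the 3 least abundant by mean CPM of each subunit, and 15 fixed for their roles. Other genes are those called in each list over both mice and a fixed few. Some genes that the rule names are not reported here. Transcript starts and coordinates are RefSeq's on GRCm38.p6, which the mm10 build shares. Figures were drawn with matplotlib 3.10.9 under Python 3.11.15.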

Additional observations from a re-analysis of the deposited data

Results flagged for a closer look

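Rps2 was the one member whose difference between tibia and femur itself differed between the mice. The log2 difference was 0.31 in mouse 7 and 0.05 in mouse 19, a change of -0.26 (edgeR's quasi-likelihood test, adjusted p = 0.00745). Its femur libraries were at 318 to 329.5 CPM in mouse 7 and 409 to 437 CPM in mouse 19, while its tibia libraries were at 388 to 425 CPM and 412 to 448 CPM.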

How the results depend on the processing

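Members called higher in tibia over both mice numbered 6, against 11 with no filter on low counts, 10 with DESeq2, 0 without a mouse term, 0 with counts summed per animal and 2 to 13 when 1 library was left out. With a replicate block, which pairs libraries of the same number, 2 were called over both mice (Rpl14 and Rps2). In mouse 7 the 8 calls became 3 to 12 with 1 library left out. In mouse 19 the count of 0 became 2 with no filter, 1 with DESeq2 and 0 to 2 with 1 library left out. The 56 members higher in mouse 19 became 7 with counts summed per animal and 45 to 64 with 1 library left out. No alternative called a member lower in any of these comparisons, and Rps2 was called for the difference between mice under each one run. DESeq2 size factors, TMM factors taken without the members and halved counts kept each count within 1.5 times. Sums over the subunits moved by less than the spread between libraries.

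Of 738 values of the 37 tested named members under single alternatives, 659 kept direction and side of the threshold, 45 lost the call, 18 gained it and 16 changed sign. All sign changes were near 0 or of rare genes and came from leaving out 1 library: Rpl23 ran from -0.0028 to 0.0354, Rplp0 from -0.0050 to 0.0300, Rps9 from -0.0082 to 0.0215, Rpl3l from -0.0273 to 0.2796 and Rps27 from -0.3249 to 0.0838. The cause of these shifts was not tested. The 73 members at 100 CPM or more had at least 1012 counts in every library, while depth leaves wide errors for Rpl3l, Rpl30, Rpl34 and Rps27; the animals number 2.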
